A study of Mus musculus with 8 samples.

Results

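The 10 genes of apolipoproteins and lipoprotein handling examined here were Apoe, Apoc2, Apoa1, Apoc3, Apob, Apom, Pltp, Scarb1, Vldlr and Lipc. Of these 10 genes, 9 were reached by 12 of the 39429 probes through the transcript accession of the probe, and 7 had a probe bright enough to test among 14476 genes. The cells were primary cultures of kidney proximal tubule cells from male C57/BJ mice aged 6 weeks. They were grown to confluence from trypsin-digested kidney cortex and then kept in serum-free medium. The 2 groups were 4 samples given 1 uM GW4064 for 24 h and 4 samples given the vehicle DMSO for 24 h. GW4064 is a laboratory compound that activates FXR, a nuclear receptor whose natural ligands are bile acids. The labels do not say whether samples of a group came from separate animals or cultures, so p-values measure only how these samples vary, which may be technical variation.

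Apolipoproteins are the protein part of lipoproteins, the particles that carry cholesterol and triglyceride in blood. They hold the particle together, activate or inhibit the lipases that unload it, and bind the receptors that clear it. Proximal tubule cells meet filtered apolipoproteins through the endocytic receptors megalin and cubilin, and they are, beside hepatocytes, a known site of Apom synthesis. In liver FXR is known to raise Apoc2, Pltp and Scarb1 and to lower Apoa1 and Apoc3.

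The arrays showed 3 of the 7 tested genes higher and 1 lower with GW4064. Apom, a lipocalin that rides on HDL and carries sphingosine-1-phosphate, was 3.97-fold higher. Apoe, a ligand of several lipoprotein receptors, was 1.79-fold higher, and Scarb1, the HDL receptor that takes up cholesteryl ester, was 1.33-fold higher. Vldlr, a receptor for triglyceride-rich particles that contain Apoe, was 1.31-fold lower. Apob, Apoc3 and Pltp did not pass the test. Over all genes 20.8% were called in either direction, 11.8% higher and 8.95% lower, at an adjusted p of 0.05 in limma. For 4 of the 7 genes the values of the groups were apart without overlap, against 26.2% of all genes tested. The median log2 fold change of the 7 genes was 0.38, against 0.01 over all genes. The genes were listed with earlier results of these arrays known, so these shares are descriptions.

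As a check of the treatment, the bile acid exporter subunits Slc51a and Slc51b were 120.6-fold and 10.6-fold higher with GW4064. The FXR gene itself, Nr1h4, had a log2 fold change of -0.45 ± 0.05 (SE, n = 4 per group). Between 61.4% and 65.7% of probes were well above background on each array, and the 75th percentile of the signal was 1412 ± 207 with GW4064 and 1626 ± 187 with DMSO (SD, n = 4 each). Each of the 2 slides held 2 samples of either group. GW4064 samples lay in places 3 and 4 and DMSO samples in places 1 and 2 of every slide, so treatment and place cannot be told apart. All 12 proximal tubule markers were bright enough to test, and 9 were higher and 1 lower with GW4064. Gatm, a creatine synthesis enzyme, was 3.87-fold higher, and Cdh16, a kidney cadherin with the brightest probe of the list, fell by 0.23 log2 units (adjusted p = 0.0312 in limma). The Cdh16 call was lost on leaving out any array but GW4064 replicate 2 or DMSO replicate 4 (adjusted p up to 0.076).

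Values below are log2 signals relative to the 75th percentile of the array, so 0 is a signal equal to that percentile. Probes differ in binding, so a level of one gene cannot be set against that of another. Transcript per cell and number of cells of a type cannot be told apart in these bulk cultures.

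Apom read -0.72, -0.73, -1.07 and -0.72 in the 4 GW4064 samples, against -2.66, -2.81, -2.86 and -2.87 in the 4 DMSO samples. Every GW4064 value lay above every DMSO value by more than 1 log2 unit. The log2 fold change was 1.99 ± 0.09 (SE, n = 4 per group), with a 95% interval of 1.78 to 2.19 (adjusted p = 4.26e-06 in limma). The difference was 2.01 on slide 1 and 1.97 on slide 2.

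Apoe read 4.29, 4.25, 4.09 and 4.18 in the GW4064 samples, against 3.49, 3.33, 3.34 and 3.31 in the DMSO samples. The groups did not overlap, and the lowest GW4064 sample stood clear of the highest DMSO sample. The log2 fold change was 0.84 ± 0.06 (SE, n = 4 per group; adjusted p = 5.12e-05 in limma), with 0.86 on slide 1 and 0.81 on slide 2. The probe was spotted 10 times on each array, which gives a view of the technical error within an array. Among those spots the SD was 0.034 to 0.067 log2 units, which covers the repeat of a spot and not the spread between samples. No spot was saturated.

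**Figure D1:**
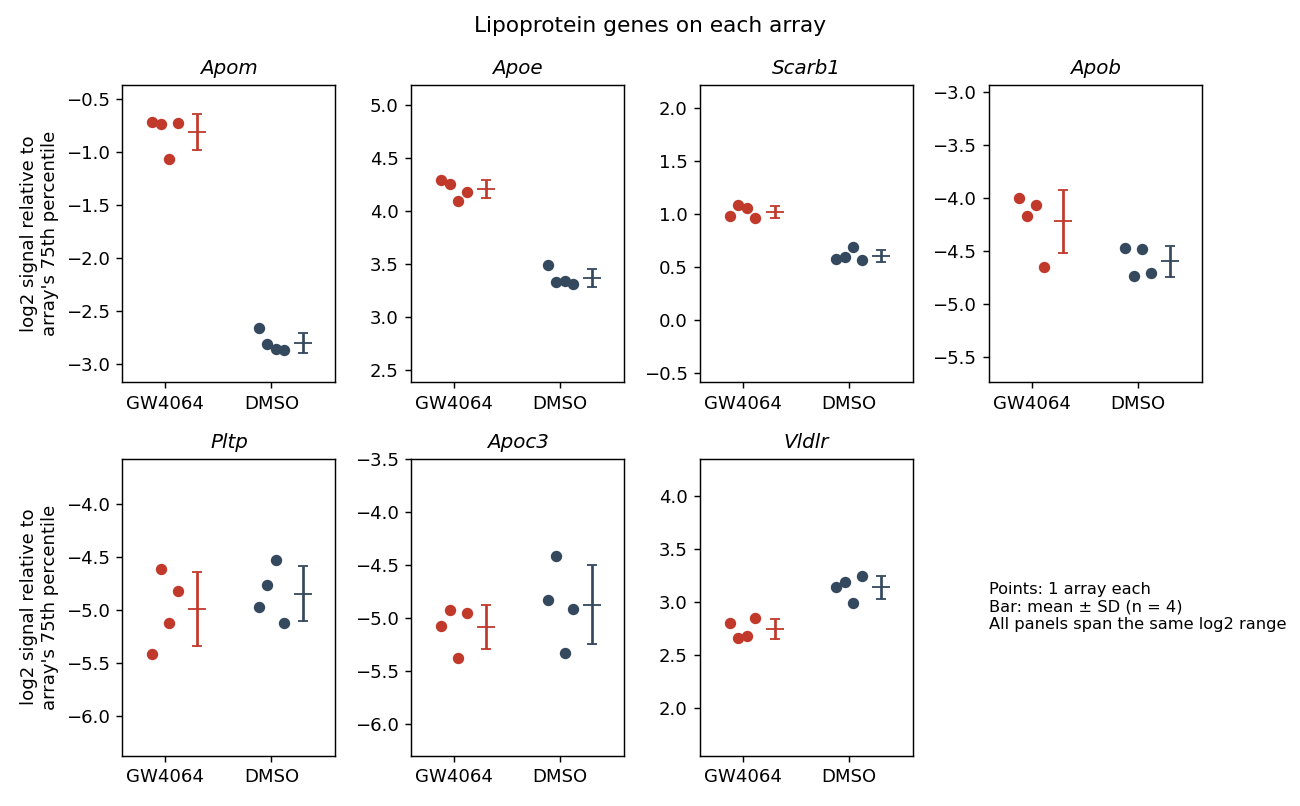
Log2 signal relative to the array's 75th percentile for the 7 tested lipoprotein genes, with each point an array, GW4064 left of DMSO, and a bar for the mean and SD (n = 4). Apom, Apoe and Scarb1 lie higher with GW4064 and Vldlr lower, with no overlap, whereas the points of Apob, Pltp and Apoc3 overlap.

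The sequence before the start of these genes is shown beside that of a known bile acid target. FXR, paired with RXR, is known to bind an inverted repeat (IR-1), the half-site AGGTCA and its reverse complement with any 1 base between them. The windows, from RefSeq on build GRCm38.p6, span 250 bases before to 50 bases after a transcription start. They were available for 8 of the 10 genes, and the best match to the repeat was found in each on both strands. The gene with the largest rise, Apom, the brightly measured Apoe and the bile acid binding protein gene Fabp6, at least 61.4-fold higher with GW4064, are shown 5′ to 3′. That match is in capitals, or the first of them where several are equally good. The Apom window is chr17:35131752-35132051 (minus strand), the Apoe window chr7:19699139-19699438 (minus strand, the first of 3 listed starts) and the Fabp6 window chr11:43601513-43601812 (minus strand).
Apom: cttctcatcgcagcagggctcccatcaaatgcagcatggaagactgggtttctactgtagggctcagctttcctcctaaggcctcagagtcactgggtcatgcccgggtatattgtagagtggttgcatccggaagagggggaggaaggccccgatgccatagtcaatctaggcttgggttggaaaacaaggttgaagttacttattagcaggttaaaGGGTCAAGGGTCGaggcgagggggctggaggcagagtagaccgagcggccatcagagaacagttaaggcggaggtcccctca
Apoe: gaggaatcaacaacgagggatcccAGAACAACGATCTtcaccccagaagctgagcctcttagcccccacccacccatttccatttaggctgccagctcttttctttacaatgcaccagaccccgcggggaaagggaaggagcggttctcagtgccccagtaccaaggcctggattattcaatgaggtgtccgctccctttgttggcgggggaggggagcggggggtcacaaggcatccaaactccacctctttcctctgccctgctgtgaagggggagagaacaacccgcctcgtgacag
Fabp6: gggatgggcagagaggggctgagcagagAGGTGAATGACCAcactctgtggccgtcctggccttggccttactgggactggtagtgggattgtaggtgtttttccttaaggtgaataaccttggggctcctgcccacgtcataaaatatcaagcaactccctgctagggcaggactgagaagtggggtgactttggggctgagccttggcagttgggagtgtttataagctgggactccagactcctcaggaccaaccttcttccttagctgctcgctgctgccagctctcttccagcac
Of the 12 fixed letters, the best match in Apom differed at 5. So close a match, or a closer one, was held by 98.1% of 32851 windows. The best match in the Apoe window shown differed at 4, reached by 56.4% of windows, and that of its second listed start at 3, reached by 11.4%. The best match in Fabp6 differed at 2, reached by 1.14% of windows, and those in Slc51a and Slc51b at 3, like the second start of Apoe. The same 13 bases of Apom, GGGTCAAGGGTCG, were also its best match to the direct repeat of AGGTCA with any 1 base between copies, the kind bound by HNF4A, with 3 letters different, which 24.6% of windows reached. The Apoc2 window held AGGCCAGAGGTCA, 1 letter from that direct repeat, a score reached by 0.554% of windows, and itself has no value on the arrays. The Apoe window shown and the Apoa1 window also differed from the direct repeat at 3 letters. That of the second listed start of Lipc differed at 2, reached by 3.86% of windows. A match is a description of letters, and these windows do not cover distant elements.

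Scarb1 had 2 probes. The brighter read 0.98, 1.09, 1.05 and 0.96 in the GW4064 samples, against 0.57, 0.59, 0.69 and 0.57 in the DMSO samples. The groups did not overlap, and the spread within each was small. The log2 fold change was 0.41 ± 0.05 (SE, n = 4 per group; adjusted p = 0.000491 in limma). The dimmer probe read -1.62, -1.57, -1.67 and -1.59 in the GW4064 samples and -2.04, -1.93, -2.01 and -2.12 in the DMSO samples, again without overlap and with a difference of 0.41 (adjusted p = 0.00105 over all 24723 kept probes in limma, of which 15.4% were called). On slide 1 the brighter probe differed by 0.45 (adjusted p = 0.0363 in limma) and on slide 2 by 0.38, which did not pass there (adjusted p = 0.130 in limma).

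Vldlr was the member that fell. Its brighter probe read 2.80, 2.66, 2.68 and 2.85 in the GW4064 samples, against 3.14, 3.19, 2.99 and 3.24 in the DMSO samples. Every GW4064 value lay below every DMSO value. The log2 fold change was -0.39 ± 0.07 (SE, n = 4 per group; adjusted p = 0.00493 in limma). The dimmer probe had a difference of -0.28 ± 0.09 (SE; adjusted p = 0.0639 over all probes in limma) and its groups overlapped, with -0.73, -0.78, -0.94 and -0.66 in the GW4064 samples and -0.47, -0.36, -0.70 and -0.44 in the DMSO samples. Within slide 1 the brighter probe differed by -0.43 (adjusted p = 0.0506 in limma) and within slide 2 by -0.35 (adjusted p = 0.259), so neither slide passed alone.

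**Figure D2:**
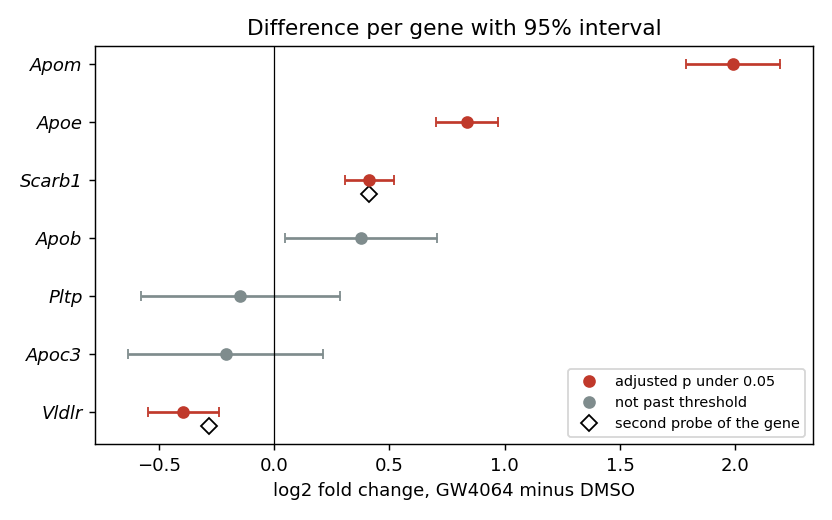
Log2 fold change (GW4064 minus DMSO) of the 7 tested genes with its 95% interval from the fit, red where the adjusted p is under 0.05 and grey where it is not, and open diamonds for the dimmer probe of Scarb1 and Vldlr. The probes of Scarb1 coincide at 0.41, and the dimmer probe of Vldlr stands at -0.28, nearer to 0 than the brighter at -0.39.

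Apob, the structural protein of VLDL and LDL, had 2 probes. The brighter probe read -4.00, -4.17, -4.07 and -4.66 in the GW4064 samples, against -4.47, -4.74, -4.48 and -4.71 in the DMSO samples. The first 3 GW4064 values lay above all DMSO values, but GW4064 replicate 4 fell among them. The log2 fold change was 0.38 ± 0.14 (SE, n = 4 per group; adjusted p = 0.102 in limma), with a 95% interval before adjustment of 0.05 to 0.71. Without GW4064 replicate 4 it was 0.52 and passed (adjusted p = 0.00705 in limma). The dimmer probe read -6.42, -6.30, -5.97 and -5.82 with GW4064 and -6.58, -6.56, -7.28 and -7.60 with DMSO, without overlap. It was well above background in all 4 GW4064 samples and in 0 of the 4 DMSO samples, which makes its signal at least 1.08-fold higher. It was bright enough to keep only through the GW4064 samples, so neither its p nor that of the mean of both probes is read.

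Apoc3 inhibits lipoprotein lipase, and Pltp moves phospholipid between particles. Apoc3 read -5.07, -4.93, -5.38 and -4.96 in the GW4064 samples, against -4.83, -4.42, -5.33 and -4.92 in the DMSO samples. DMSO replicates 1, 2 and 4 lay above all GW4064 values, but DMSO replicate 3 fell among them. The log2 fold change of -0.21 ± 0.18 (SE, n = 4 per group) did not pass (adjusted p = 0.464 in limma). Its 95% interval ran from -0.63 to 0.21. Without DMSO replicate 3 the log2 fold change of Apoc3 was -0.36 and did not pass either (adjusted p = 0.139 in limma). Pltp read -5.42, -4.62, -5.12 and -4.82 in the GW4064 samples, against -4.97, -4.76, -4.53 and -5.12 in the DMSO samples. These groups overlapped as well, with a log2 fold change of -0.15 ± 0.19 (SE, n = 4 per group; adjusted p = 0.624 in limma) and a 95% interval of -0.58 to 0.28. Both probes were dim, so changes inside these intervals could not be seen with 4 arrays a group.

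Apoa1, the main protein of HDL, and Lipc, hepatic lipase, were not tested. The Apoa1 probe, also spotted 10 times, was not well above background in any sample, with a processed signal of 3.74 to 4.70 in the GW4064 samples and 5.16 to 6.34 in the DMSO samples. The Lipc probe was not well above background either, with a processed signal of 3.86 to 4.33 with GW4064 and 5.81 to 11.6 with DMSO. No fold is given for these 2 genes, since neither group had a measured level. No probe matched Apoc2, the activator of lipoprotein lipase, by the accessions used, so it has no value here.

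Several of these genes lie in clusters. On the GRCm38.p6 gene table Apoe neighbours Apoc1, Apoc4 and Apoc2, and Apoa1 neighbours Apoc3, Apoa4 and Apoa5. Beside Apoe, Apoc1, an apolipoprotein that slows particle uptake, read -4.38, -4.24, -4.83 and -4.36 with GW4064 and -4.76, -4.88, -4.99 and -4.85 with DMSO. Its groups overlapped in 1 GW4064 sample, and the log2 fold change of 0.42 ± 0.12 (SE, n = 4 per group) passed (adjusted p = 0.0433 in limma). The call was lost on leaving out any array but GW4064 replicate 3 (adjusted p up to 0.104). Apoc4 was not well above background in any sample. In the Apoa1 cluster only Apoc3 was bright enough to test. Apoa4 was not well above background in any sample and Apoa5 in 1 of 4 GW4064 samples and 0 of 4 DMSO samples.

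Other lipid transport genes were read in 5 lists written from general knowledge, with 71 names, of which 57 were tested. In all, 17 were higher and 5 lower, where 11.8% of all genes were higher and 8.95% lower, and the median log2 fold change was 0.06. These shares of all genes are the background for each list below. Among 7 tested apolipoproteins outside the 10, Apoc1 was higher and 6 did not pass. Clu, clusterin or apolipoprotein J, named after its values were seen, had a log2 fold change of 0.08 ± 0.06 (SE, adjusted p = 0.417 in limma). Apof, Apon, Saa2 and Saa4 were not well above background in any sample, and Apoh was in 3 of 4 GW4064 samples and 0 of 4 DMSO samples.

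Assembly and lipid loading of particles had 5 genes higher and 1 lower of 13 tested, with a median of 0.05. Of the 5 higher calls, 1 of a gene not named here was lost on leaving out any array (adjusted p 0.0571 to 0.107 in limma). Soat2, which makes cholesteryl ester for Apob particles, was 2.39-fold higher, with -3.34, -2.96, -3.44 and -3.66 in the GW4064 samples and -4.50, -4.59, -4.72 and -4.62 in the DMSO samples. Tm6sf2, which helps load lipid onto VLDL in liver, was 1.84-fold higher, reading -0.22, -0.14, -0.41 and -0.11 with GW4064 and -0.88, -1.06, -1.19 and -1.28 with DMSO. In both genes the groups did not overlap. Acat2, in the count though it is a cytosolic thiolase of sterol synthesis, was 2.27-fold higher, and Dgat2, which makes triglyceride, was 1.65-fold higher. Mttp, the transfer protein that lipidates Apob, had a log2 fold change of -0.05 ± 0.05 (SE, adjusted p = 0.542 in limma); this gene and Sort1, the 1 that fell (-0.21 ± 0.05), were picked after their values were seen. Sort1 did not pass without GW4064 replicate 2, DMSO replicate 1 or DMSO replicate 4 (adjusted p up to 0.0617).

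Receptors and adaptors had 5 genes higher and 3 lower of 18 tested, against 11.8% and 8.95% of all genes, with a median of 0.13. Cubn, cubilin, the tubular receptor that takes up filtered Apoa1, was 2.22-fold higher, and its membrane partner Amn was 1.30-fold higher. Lrpap1, a chaperone of megalin and related receptors, was 1.37-fold higher. Sdc1, a heparan sulfate proteoglycan that captures remnants, was 1.28-fold lower. Named after their values were seen, Lrp2, megalin, was 1.24-fold higher, and Mylip, a ligase that directs Vldlr protein to degradation, was 1.35-fold lower. Of the 5 higher calls, 1 of a gene not named here was lost in 7 of 8 fits that each left out 1 array. Cubn, Lrp2 and Pdzk1 also stand among the 12 proximal tubule markers.

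Lipases and their regulators had 2 genes higher and 0 lower of 10 tested in limma (3 and 1 at an unadjusted p under 0.05), with a median of 0.03, a share of calls near the 20.8% over all genes. Angptl8, a secreted regulator of lipoprotein lipase, was among the higher genes, at 1.42-fold. Lpl itself, named after its values were seen, had a log2 fold change of -0.04 ± 0.06 (SE, adjusted p = 0.635 in limma), and its dimmer probe a difference of 0.16 ± 0.05. HDL formation and efflux had 4 genes higher and 1 lower of 9 tested, with a median of 0.02. Abca1, which loads lipid onto Apoa1, was 1.30-fold higher, its relative Abca7 1.37-fold higher and Npc2, a lysosomal cholesterol carrier, 1.13-fold higher. Nr1h3, the oxysterol receptor LXR alpha, was 1.31-fold higher, and Pon3, named after its values were seen, was 1.12-fold lower (adjusted p = 0.0371 in limma). Leaving out GW4064 replicate 1 or 2 or DMSO replicate 2, 3 or 4 ended that call (adjusted p up to 0.101). Lcat, Abcg5, Abcg8 and Pon1 were not well above background in any sample.

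**Figure D3:**
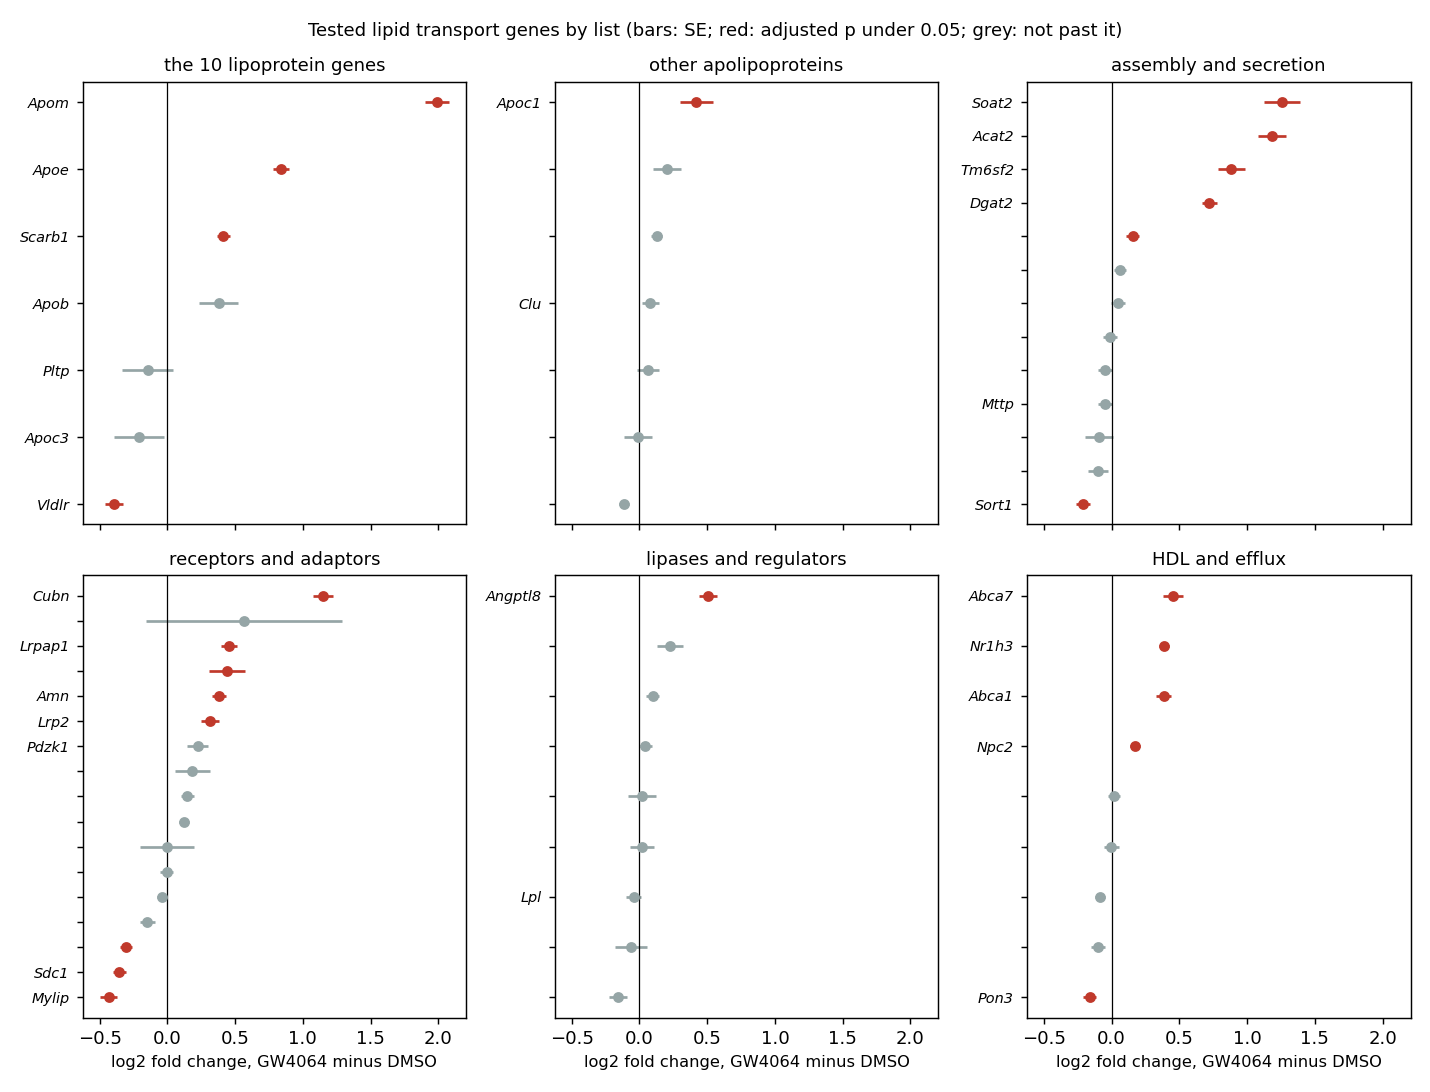
Log2 fold change (GW4064 minus DMSO) with SE of tested genes, in a panel per list with names for genes described in the text, red where the adjusted p is under 0.05 and grey where it is not. Among the genes of the 5 related lists shown, Soat2, Acat2 and Cubn lie beyond 1 log2 unit.

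Other cells also make apolipoproteins, macrophages Apoe and hepatocytes most of the 10. Counts of markers in this paragraph are to be read against the 11.8% of all genes that were higher and the 8.95% that were lower. Of 14 tested macrophage and leukocyte markers 5 were higher and 0 lower in limma (8 and 0 at an unadjusted p under 0.05), and their summed linear signal, in units of the 75th percentile, was 22.2 to 24.9 with GW4064 and 17.4 to 18.8 with DMSO. Csf1r was 1.68-fold higher, and Cd14, the marker with the brightest probe over the 8 arrays, was 1.32-fold higher. Among the 5 higher calls, 1 of a gene not named here was lost in 6 of 8 fits that each left out 1 array. Another was lost in 4 of 8. The defining markers Ptprc (-0.90 ± 0.54 log2, SE) and Adgre1 (0.28 ± 0.17), named after their values were seen, did not pass (adjusted p = 0.279 and 0.278 in limma). DMSO replicate 4 stood far above the other DMSO samples for Ptprc, and without it the log2 fold change was -0.27 ± 0.06 and passed (adjusted p = 0.0257 in limma). A dimmer Adgre1 probe differed by -0.07. Of 7 tested hepatocyte markers 3 were higher and 0 lower in limma (4 and 0 at an unadjusted p under 0.05), with sums of 6.45 to 7.72 with GW4064 and 2.90 to 4.25 with DMSO, while Alb and Cyp7a1 were not well above background in any sample. Serpina1a, the hepatocyte marker with the brightest probe and one of a family of near-identical genes, was 3.02-fold higher, and Fga was 1.86-fold higher, with 0.51 ± 0.47 log2 units (SE) at its dimmer probe, or 1.03 without DMSO replicate 4, which was high there. A linear sum is set mostly by the brightest probes of its list, here Csf1r, Cd14 and Itgam for leukocytes and Serpina1a and Fgb for hepatocytes. Itgam and Fgb were named after their values were seen. Itgam had a log2 fold change of 0.03 ± 0.11 (SE, adjusted p = 0.864 in limma), and its dimmer probes differed by 0.41 and 0.47. Fgb was 1.49-fold higher. The median log2 fold change was 0.28 over the 14 leukocyte markers and 0.54 over the 7 hepatocyte markers. The part of these cells in the lipoprotein genes was not tested. Endothelial markers had 4 higher of 7 (sums 6.00 to 6.76 with GW4064 and 5.19 to 6.14 with DMSO) and fibroblast markers 3 higher of 8 (79.0 to 95.6 and 57.7 to 73.7). Among the 4 endothelial calls, 1 was lost in 6 of 8 fits that each left out 1 array. Markers of other nephron segments had 2 lower of 7, with sums of 7.02 to 8.57 with GW4064 and 6.73 to 8.55 with DMSO. Of these 2 calls, 1 was of a gene well above background in only 2 of 4 GW4064 samples. It was lost in 6 of 8 fits that each left out 1 array.

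The calls of the 4 genes were set against 21 other ways of processing the arrays. The plot of log2 fold changes by setting shows that Apom and Apoe kept their call in 20 of 21, Scarb1 in 19 and Vldlr in 18. The setting that ended the call of all 4 was a background correction, normexp with local backgrounds as scanned, which also turned Apob to -0.37. With the local backgrounds that the scanner software had marked as outliers replaced by the array's median, the log2 fold changes were 1.70 for Apom, 0.81 for Apoe, 0.36 for Scarb1 and -0.36 for Vldlr, and all 4 passed (adjusted p between 1.74e-07 and 0.0134 in limma).

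**Figure D4:**
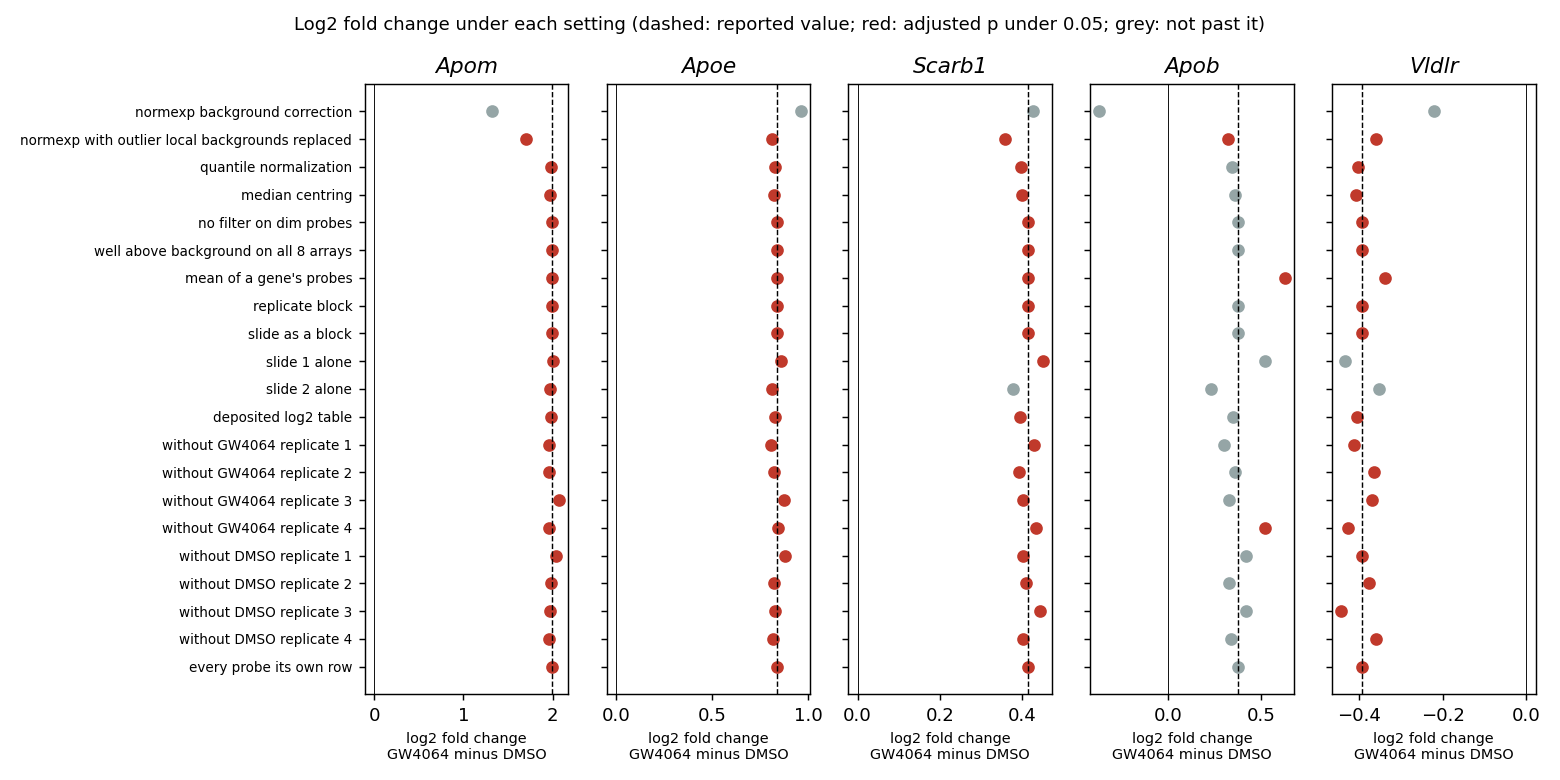
Log2 fold change (GW4064 minus DMSO) of 5 lipoprotein genes under each alternative, red where the adjusted p is under 0.05 and grey where it is not, with a dashed line at the reported value. Points of Apom, Apoe and Scarb1 stay close to the dashed line, except under both normexp settings for Apom and under normexp as scanned for Apoe, where Apob crosses 0.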

How the data were processed

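Total RNA of 8 samples was hybridised to single-colour Agilent arrays. The spot intensity was deposited by the authors after background subtraction with Feature Extraction, whose version per the file headers was 10.7.3.1 (10.7 per the submitters' processing notes, which also list limma). A deposited table of log2 values, whose columns share 1 distribution, has its scale otherwise unstated and served only as an alternative. Control spots (1377 of 44397) and spots marked as outliers were left out, and spots of a probe were averaged as log2 values minus the array's 75th percentile. Probes well above background on at least 4 of 8 arrays were kept. A probe with several spots counts as well above background if at least 50% of its spots are. Symbols came from the GRCm38.p6 table (27234 probes matched), and the brightest kept probe stood for a gene. The headers name build mm9, so no probe position is given.

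The comparison used limma 3.58.1 under R 4.3.3, without covariates, and p-values adjusted over 14476 genes by Benjamini-Hochberg. The fold of a probe not above background in a group is given as "at least" a size. It sets the mean of the bright group against a floor for the dim group, taken on each array as the larger of 2 values: the weakest signal still well above background, and the probe's own signal. Precision is limited by having 4 arrays a group. In simulated data for this comparison over 14476 genes, 77 of 100 genes changed by 0.5 log2 units and 95 of 100 changed by 1 were recovered. Beside these, 10 unchanged genes were called.

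The genes and lists were chosen with earlier results of these data known. Named are the 10 genes, 4 checks of the treatment, up to 4 called genes per list with the smallest p, genes dim on every array, and per marker list the brightest and up to 2 called; others are said to be picked later. Alternatives covered background correction, scaling, filter, probe choice, blocks for replicate number and slide, slides alone, the deposited table and each array left out. Some genes of the lists are counted but not reported here by name. Normexp used the median signal of each spot.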

Additional observations from a re-analysis of the deposited data

Results flagged for a closer look

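In 14 groups of 4 arrays (7 genes in either treatment), 2 had 1 array that stood away from its group. About 5% of groups would by chance. Apom in GW4064 replicate 3 was low, at -1.07 against -0.73 to -0.72 in the other GW4064 samples, and still above all DMSO samples. Without that array the log2 fold change of Apom was 2.07. Apoe in DMSO replicate 1 was high, at 3.49 against 3.31 to 3.34 in the other DMSO samples, and still below all GW4064 samples. Without it the log2 fold change of Apoe was 0.88.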

How the results depend on the processing

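The labels do not say whether replicate numbers pair the samples. Deviations of same-numbered samples correlated at -0.131 to 0.192, the highest for replicate 3, and so few correlations cannot decide it. With the replicate block 2322 genes passed instead of 3006, the 4 lipoprotein calls stood (adjusted p 0.000215 for Apom, 0.000667 for Apoe, 0.00413 for Scarb1 and 0.00865 for Vldlr in limma), and 3 related genes were lower instead of 5. Normexp with the local backgrounds as scanned left 119 genes (80 higher, 39 lower), 0 lipoprotein genes higher and 0 lower in limma (3 and 0 at an unadjusted p under 0.05), and 2 related genes higher and 0 lower. There Apob reversed to -0.37, and the log2 fold change was 1.32 for Apom (adjusted p 0.197), 0.96 for Apoe (0.0523), 0.43 for Scarb1 (0.0698) and -0.22 for Vldlr (0.699). On DMSO replicate 3 the lowest spot signal minus its local background was -53476.5, against -44.5 or more on the other arrays, and the corrected signal's 10th percentile was 1267, against 63.0 to 71.5. In an alternative chosen after seeing the data, with marked local backgrounds replaced, it was 67.2, and 2157 genes passed, with 4 lipoprotein genes higher (Apob at an adjusted p of 0.0136) and 1 lower. Slide 1 alone gave 966 genes (607 higher, 359 lower), and 0 lipoprotein and 0 related genes lower (1 and 7 at an unadjusted p under 0.05). Slide 2 alone gave 220 genes (168 higher, 52 lower), 2 lipoprotein genes higher and 0 lower, and 3 related genes higher and 0 lower (1 lipoprotein and 5 related genes lower at an unadjusted p under 0.05). These limma fits have 2 samples a group. Leaving out each array gave 2076 to 2827 genes (1187 to 1636 higher, 889 to 1210 lower), 3 to 4 lipoprotein genes higher and 1 lower, and 13 to 16 related genes higher and 3 to 5 lower, the 3 without GW4064 replicate 2 or DMSO replicate 4. Changes of dim probes such as Apoc3 and Pltp are limited by their signal over background.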
